A study of Mus musculus with 30 samples.

Results

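The globin genes Hba-x, Hba-a1, Hba-a2, Hbb-bh1, Hbb-y, Hbb-bs and Hbb-bt were followed from mouse embryonic stem cells (ESC) to blood progenitors made from them in culture. They are the 7 rows of the deposited expression table, of 14685 genes in all, that carry these symbols. The rows were picked by name, but the list of names was set with earlier results of these data known. RNA was sequenced from 30 samples of E14 cells, a mouse ESC line, in 15 groups of 2 replicates. The 5 populations were ESC, Flk1+ cells purified on magnetic columns from embryoid bodies, and 3 populations sorted by flow cytometry after 2 days of blast culture. All 3 were KIT+, and they were HE1 (Tie2+ without CD41), HE2 (Tie2+ with CD41) and progenitors (CD41+ without Tie2). Each was taken from E14 WT cells, from Sp1ΔDBD/ΔDBD cells, in which the DNA-binding domain of the transcription factor Sp1 is deleted, and from Sp3-/- cells, a knockout of the related factor Sp3. The ESC were maintained on fibroblast feeders and passaged without them before differentiation. Each genotype is a separate cell line, and the time spent as embryoid bodies depended on the line, so the genotype and the history of its line cannot be told apart. The replicates are described as biological, and with 2 in a group the p-values rest on the spread shared by all 15 groups. Hba-x, Hbb-y, Hbb-bs and Hbb-bt were listed at 0 in every ESC and Flk1+ sample, and these groups add no spread. For these genes the shared spread is therefore lower than that of the sorted populations, to which it is also applied.

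Haemoglobin is a tetramer of α-like and β-like globin chains. The first red cells of the mouse embryo, which arise in the yolk sac, use embryonic chains: Hba-x encodes ζ-globin, the embryonic α-like chain, and Hbb-bh1 and Hbb-y encode the embryonic β-like chains βh1 and εy. Hba-a1 and Hba-a2 are near-identical copies of the adult α-globin gene, and Hbb-bs and Hbb-bt are the adult β-globin genes of the β haplotype found in C57BL/6 mice. In both clusters expression depends on a distal enhancer region bound by erythroid factors and on promoter elements that include CACCC boxes, which are recognised by zinc finger proteins of the Sp and KLF family.

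In the GENCODE M21 annotation (GRCm38) the α-like genes lie on the plus strand of chromosome 11, from Hba-x (chr11:32276400-32278116) through Hba-a1 (chr11:32283511-32284465) to Hba-a2 (chr11:32296489-32297298), each protein-coding with its exons inside these limits. The β-like genes lie on the minus strand of chromosome 7, in the order Hbb-y (chr7:103851749-103853216), Hbb-bh1 (chr7:103841637-103843164), Hbb-bs (chr7:103826534-103828096) and Hbb-bt (chr7:103812524-103813996). RefSeq promoter entries (GRCm38.p6) matched 6 of the 7 genes, all except Hbb-bh1. Below are stretches upstream of the RefSeq start of the embryonic genes Hba-x and Hbb-y and of 1 copy of each adult gene, shown because the CACCC box is an element that Sp factors can read. The capitals mark CCACCC and CCAAT. The RefSeq and GENCODE starts differ, so only bases outside every GENCODE exon of these genes were taken, except for Hba-x, for which 30 bases around its CACCC box are shown.
Hba-x (chr11:32276492-32276521, plus strand): tgataacaggctCCACCCtgcaagccccct
Hba-a2 (chr11:32296342-32296488, plus strand): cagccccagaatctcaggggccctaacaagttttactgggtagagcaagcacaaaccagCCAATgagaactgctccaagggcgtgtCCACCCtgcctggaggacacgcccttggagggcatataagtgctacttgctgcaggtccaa
Hbb-y (chr7:103853217-103853357, minus strand): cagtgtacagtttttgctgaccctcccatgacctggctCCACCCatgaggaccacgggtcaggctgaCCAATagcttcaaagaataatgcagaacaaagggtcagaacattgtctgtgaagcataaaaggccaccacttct
Hbb-bs (chr7:103827929-103828011, minus strand): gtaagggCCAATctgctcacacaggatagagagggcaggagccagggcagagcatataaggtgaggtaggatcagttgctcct

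The 250 bases before the RefSeq start were searched on both strands for 5 short motifs, of which none contains another. CCACCC was present in 5 of the 6 promoters, against 28.1% of all 32851 RefSeq promoters, and Hbb-bs was the promoter without these 6 letters. The shorter CACCC, which CCACCC contains, was in all 6 promoters and in 52.0% of all promoters, and in Hbb-bs it lay 90 bases before the start, just upstream of the stretch printed above, which is bounded there by a GENCODE exon. In the α-like and Hbb-y promoters the box lay 61 (Hba-a1), 64 (Hba-a2), 96 (Hba-x) and 112 bases (Hbb-y) before the start, counted to its first base. The GC box GGGCGG was in 0 of 6 promoters and in 32.7% of all promoters. CCAAT was in 5 of 6 (33.8% of all promoters), TATAAA in 2 of 6, Hba-x and Hbb-bt (12.4%), and the GATA motif AGATAA in 1 of 6, Hbb-bs (9.99%). The promoters of Hba-a1 and Hba-a2 were identical at 98.8% of 250 bases and those of Hbb-bs and Hbb-bt at 74.0%, while all other pairs lay between 56.8% and 63.2%.

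The values are FPKM (fragments per kilobase of transcript, scaled to the mapped fragments of the sample), a level per length, which the authors had quantile normalised over all samples. After this step a value stands for a rank: the highest value was 12779 in every sample, and the FPKM at ranks 2, 3 and 5 were 10321, 7014 and 4166 (medians over samples). Read counts do not go with the values, so the depth behind them is unknown. Genes without signal sit at the lowest value of a sample, which was between 0 and 0.0234 FPKM and was shared by 398 to 1660 genes, with the largest number in Sp3-/- progenitor replicate 1. The 7 housekeeping genes examined were not at 0 in any sample (lowest 9.40 FPKM). Sp3 RNA was 25.9 to 58.1 FPKM in the WT samples and 3.38 to 7.79 FPKM in the Sp3-/- samples, and Sp1 RNA, of which the ΔDBD allele lacks only the part for the DNA-binding domain, was 14.8 to 40.5 FPKM in Sp1ΔDBD/ΔDBD and 24.9 to 52.4 FPKM in WT samples. The sorted populations carried the RNA of their sort markers: Tek (Tie2) was 57.7 to 234 FPKM in the HE1 and HE2 samples and 5.95 to 17.5 FPKM in progenitors. Itga2b (CD41) RNA was however also present in the CD41- HE1 samples, at 34.8 to 83.3 FPKM against 59.1 to 147 FPKM in the HE2 and progenitor samples.

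In WT cells the globin RNAs were listed at 0 in ESC, and Hbb-bh1 and Hba-x, both embryonic, reached the highest levels. In ESC all 7 genes were listed at 0 in each sample except Hbb-bh1 in Sp1ΔDBD/ΔDBD replicate 1, at 0.166 FPKM. In WT Flk1+ cells, the mesodermal precursors of blood and endothelium, Hbb-bh1 was detected at 0.718 and 1.26 FPKM, and Hba-x and Hbb-y were listed at 0. Hba-a1 was listed at 0 and at 0.292 FPKM. Hbb-bh1 was thus the first member with a value in both samples (1 of 7 higher in Flk1+ than in ESC, adjusted p = 0.000178, limma, against 27.4% of 14525 genes tested), although with a pseudocount of 1 FPKM in place of 0.1 the call was lost.

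From the Flk1+ to the HE1 population 3 of 7 genes rose in WT cells, the 3 embryonic ones, against 23.5% of all genes tested. In HE1, an endothelial-like population with hemogenic potential, Hbb-bh1 was 55.1 and 26.5 FPKM, Hba-x 36.7 and 6.18 FPKM, and Hbb-y 8.64 and 7.75 FPKM. The rise of Hbb-bh1 over Flk1+ cells was 5.18 ± 0.638 on the log2 scale (SE, here and below of log2(FPKM + 0.1), n = 2 against 2), and no fold is given for Hba-x and Hbb-y, which were listed at 0 in Flk1+ cells (adjusted p = 5.23e-08 and 6.60e-08).

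From HE1 to HE2, the population that has gained CD41, 4 of 7 genes rose in WT, against 11.7% of all genes. Hbb-bh1 reached 677 and 349 FPKM, Hba-x 231 and 85.8 FPKM and Hbb-y 59.7 and 44.6 FPKM. The increases were 3.67 ± 0.638, 3.21 ± 0.676 and 2.64 ± 0.605 (adjusted p = 0.000521, 0.00227 and 0.00427). The fourth gene was Hba-a1, at 31.5 and 24.5 FPKM in HE2. Without WT HE1 replicate 2, in which Hba-x and Hba-a1 were lower than in replicate 1, the increases of Hba-x (1.94, adjusted p = 0.0586) and Hba-a1 (2.84, adjusted p = 0.193) no longer passed, and without WT HE2 replicate 1 that of Hba-a1 did not (5.30, adjusted p = 0.0566). From HE2 to progenitors 5 of 7 rose, against 5.46% of all genes, namely the 3 embryonic genes with Hba-a2 and Hbb-bs. Here Hbb-bh1 was 10321 and 2745 FPKM, the ranks 2 and 6 of those samples, Hba-x 2745 and 1270 FPKM and Hbb-y 455 and 447 FPKM. These 3 genes gained 3.45 ± 0.638, 3.73 ± 0.676 and 3.12 ± 0.605 (adjusted p = 0.000940, 0.000799 and 0.00141). The order Hbb-bh1, Hba-x, Hbb-y was the same in the means of all 3 sorted populations in WT. Within HE1, however, the Hba-x replicates (36.7 and 6.18) enclosed those of Hbb-y, and their levels did not differ beyond this spread.

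In Sp1ΔDBD/ΔDBD cells 0, 4, 4 and 6 of the 7 genes rose at the 4 successive steps, against 26.3%, 20.9%, 9.74% and 6.73% of all genes. In Sp3-/- cells 0, 3, 4 and 1 rose, against 26%, 20.7%, 6.78% and 2.96% of all genes. At the HE1 to HE2 step in Sp3-/- cells Hba-x passed without any 1 of the 4 samples, and the rise of Hbb-bh1 (2.67 ± 0.638) was lost without HE1 replicate 1, HE1 replicate 2 or HE2 replicate 2 (adjusted p = 0.0523, 0.0563 and 0.0760). The calls of Hba-a1 and Hbb-y were also lost without HE1 replicate 1 or HE2 replicate 2. In Sp1ΔDBD/ΔDBD cells the step calls lost by leaving out 1 sample were those of the adult copies Hba-a1 and Hba-a2. At the last step in Sp3-/- cells only Hba-a2 passed the test (9.30 ± 1.25, adjusted p = 6.92e-05), and Hbb-bh1 gained 1.97 ± 0.638 without passing it (adjusted p = 0.0626). The separate values of Hba-a2 and its near-identical copy Hba-a1 are uncertain, as described below. Summed over both copies, the mean log2 level in Sp3-/- cells was 5.02 in HE2 and 8.09 in progenitors, a smaller rise than that of Hba-a2 alone. Together the 7 genes made up 2.28% ± 1.54 (SD, n = 2) of the summed FPKM in WT progenitors, 2.14% ± 0.435 in Sp1ΔDBD/ΔDBD and 0.633% ± 0.356 in Sp3-/- progenitors. Since the normalised values stand for ranks, these shares depend on the spacing of the top ranks. In a bulk sample, fewer globin-expressing cells and less globin RNA per cell cannot be told apart.

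**Figure D1:**
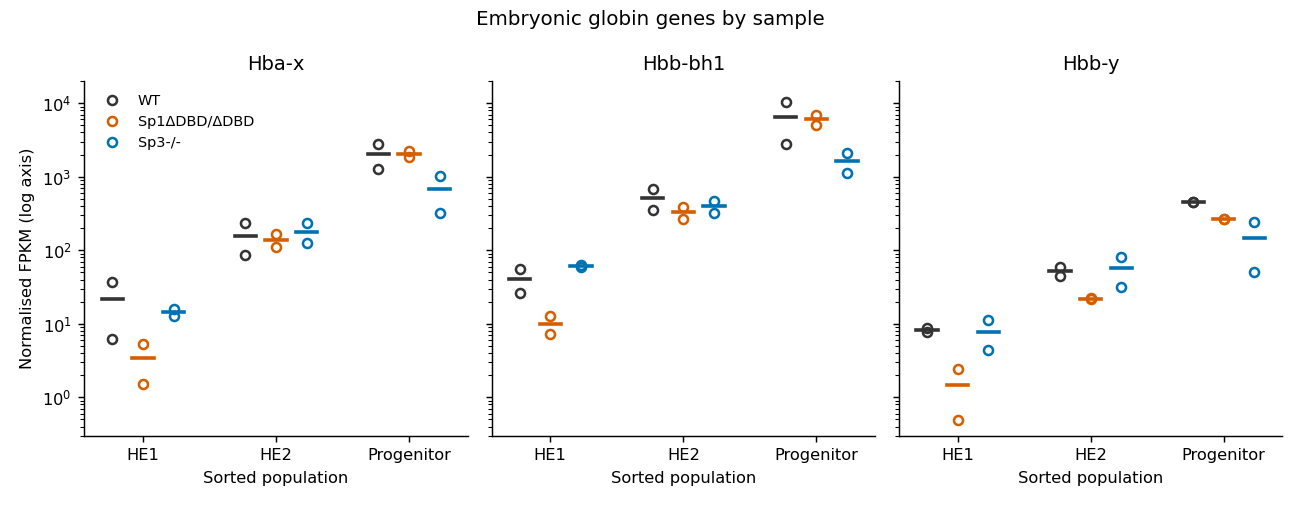
Normalised FPKM (log axis) of the embryonic globin genes Hba-x, Hbb-bh1 and Hbb-y in the HE1, HE2 and progenitor populations; circles are the 2 samples of a group, short lines their mean, and colours the genotype. The Sp1ΔDBD/ΔDBD circles are lowest in HE1, and the Sp3-/- circles are lowest in progenitors.

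The first question put to the mutants was whether the onset of globin expression in HE1 differed from WT. In Sp1ΔDBD/ΔDBD HE1 cells Hbb-y and Hba-x were called lower. Hbb-y was 2.41 and 0.497 FPKM in Sp1ΔDBD/ΔDBD against 8.64 and 7.75 FPKM in WT, and the groups did not overlap. Hba-x was 5.29 and 1.53 FPKM against 36.7 and 6.18 FPKM, again without overlap. On the log2 scale Hbb-y fell by 2.76 ± 0.605 (adjusted p = 0.00669) and Hba-x fell by 2.36 ± 0.676 (adjusted p = 0.0328). These 2 of 7 genes were called lower, against 4.35% of all genes tested. Hbb-bh1 was 12.6 and 7.24 FPKM against 55.1 and 26.5 FPKM, also without overlap, but the difference of -1.99 ± 0.638 did not pass the test (adjusted p = 0.0548). Here and below, such separations of samples between genotypes were not counted over all genes. The authors' 2-fold rule on group means, used here only where the larger mean exceeded 3 FPKM, found all 3 embryonic genes lower, against 2.83% of all genes.

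Both calls in HE1 depended on single samples. Without WT replicate 1 the difference in Hba-x was -1.09 (adjusted p = 0.445) and in Hbb-y -2.68 (adjusted p = 0.0533), and without Sp1ΔDBD/ΔDBD replicate 2 it was -1.50 (adjusted p = 0.368) and -1.72 (adjusted p = 0.164). Markers of other cells were summed beside the globin values. The endothelial sum was 956 and 1346 FPKM in the WT HE1 samples, 1006 and 1423 FPKM in Sp1ΔDBD/ΔDBD and 922 and 933 FPKM in Sp3-/-. Of the 4 measured fibroblast genes (Col1a1, Col1a2, Col3a1, Thy1) 0 passed the test, and their summed level was 193 and 29.0 FPKM in the WT HE1 samples, 41.8 and 9.19 FPKM in Sp1ΔDBD/ΔDBD and 15.1 and 14.2 FPKM in Sp3-/-, so that WT replicate 1 was the highest of the 6 samples for these genes and for Hba-x, while Hbb-bh1 was higher in both Sp3-/- samples. Thy1 was at the floor in 5 of these 6 samples. The summed level of 9 erythroid markers was 6.10 and 6.73 FPKM in WT, 2.86 and 4.44 FPKM in Sp1ΔDBD/ΔDBD and 16.2 and 17.7 FPKM in Sp3-/- HE1 cells, with Rhag at the floor in all 6 samples and Hemgn in 5. The part of these cells in the globin values was not tested.

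In HE2 and progenitors the embryonic genes of Sp1ΔDBD/ΔDBD cells were not called against WT. In HE2 Hba-x was 166 and 112 FPKM and Hbb-bh1 386 and 268 FPKM, with samples overlapping WT for each gene. Hbb-y was 22.7 and 21.4 FPKM, below both WT samples (59.7 and 44.6), but its difference of -1.22 ± 0.605 did not pass the test (adjusted p = 0.229). In progenitors Hba-x was 2259 and 1849 FPKM and Hbb-bh1 7014 and 5094 FPKM, all 4 values within the range of the WT samples. Hbb-y, at 268 and 262 FPKM, was again below both WT samples, without passing the test (-0.77 ± 0.605, adjusted p = 0.511). Of the 7 genes 0 were called in HE2 (9.67% of all genes) and 0 in progenitors (8.78%). At an unadjusted p under 0.05 there were 2 in HE2 and 2 in progenitors, all of them adult copies. Here and below, genes at an unadjusted p were not counted over all genes. The 2-fold rule found 2 lower (Hba-a1 and Hbb-y) and 1 higher (Hba-a2) in HE2, against 2.68% and 1.32% of all genes. In progenitors it found 2 higher (Hba-a1 and Hbb-bt), against 1.37%.

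Sp3-/- cells were compared with WT in the same way. In HE1 the Sp3-/- samples held Hbb-bh1 at 63.6 and 59.9 FPKM, above both WT samples, Hba-x at 16.0 and 12.7 FPKM and Hbb-y at 4.38 and 11.2 FPKM, the latter genes overlapping WT. In HE2 they held Hbb-bh1 at 325 and 474 FPKM, Hba-x at 124 and 234 FPKM and Hbb-y at 31.5 and 81.9 FPKM. Of the 7 genes 0 were called in HE1 (10.9% of all genes) or in HE2 (13.8%), and 0 had an unadjusted p under 0.05.

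In Sp3-/- progenitors Hbb-y and Hbb-bs were called lower than in WT. Hbb-y was 51.2 and 242 FPKM against 455 and 447 FPKM, and fell by 2.02 ± 0.605 (adjusted p = 0.0439). Hbb-bh1 was 1111 and 2128 FPKM, the ranks 44 and 8, against 10321 and 2745 FPKM, and Hba-x was 325 and 1038 FPKM against 2745 and 1270 FPKM. For all 3 embryonic genes both Sp3-/- samples lay below both WT samples, a separation not counted over all genes. The levels of these 3 genes follow one another closely across the groups, so they are not 3 separate observations. The differences of -1.79 ± 0.638 for Hbb-bh1 (adjusted p = 0.0912) and -1.69 ± 0.676 for Hba-x (adjusted p = 0.136) did not pass the test. With Hbb-bs, described with the adult copies, 2 of 7 genes were called lower, against 4.77% of all genes tested, and by the 2-fold rule 6 of 7 were lower, against 2.89% of all genes.

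The Sp3-/- progenitor samples were further apart in Hbb-y than the WT samples. Without Sp3-/- replicate 1 the difference in Hbb-y was -0.90 (adjusted p = 0.515), and without WT replicate 1 or WT replicate 2 the call was also lost (adjusted p = 0.144 and 0.137). Without WT replicate 2 Hbb-bh1 passed the test (-2.75, adjusted p = 0.0297). Sp3-/- replicate 1 is the sample with the most genes at the floor, 1660 against 1199 in replicate 2 and 858 and 910 in the WT progenitors. The 9 erythroid markers summed to 126 and 175 FPKM in Sp3-/- and to 260 and 140 FPKM in WT progenitors. The endothelial sum was 150 and 165 FPKM against 135 and 160 FPKM, and the myeloid sum 47.2 and 46.7 FPKM against 58.2 and 117 FPKM. Of these lists the erythroid marker Slc4a1 was called lower (-2.35 ± 0.595, adjusted p = 0.0187), Tek higher (1.09 ± 0.300, adjusted p = 0.0288) and the leukocyte gene Ptprc lower (-2.05 ± 0.401, adjusted p = 0.00410). The fibroblast sum, with 0 of 4 genes called, was 4.49 and 6.87 FPKM against 42.7 and 14.6 FPKM, with Thy1 at the floor in all 4 samples. The part of these markers in the globin values was not tested.

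**Figure D2:**
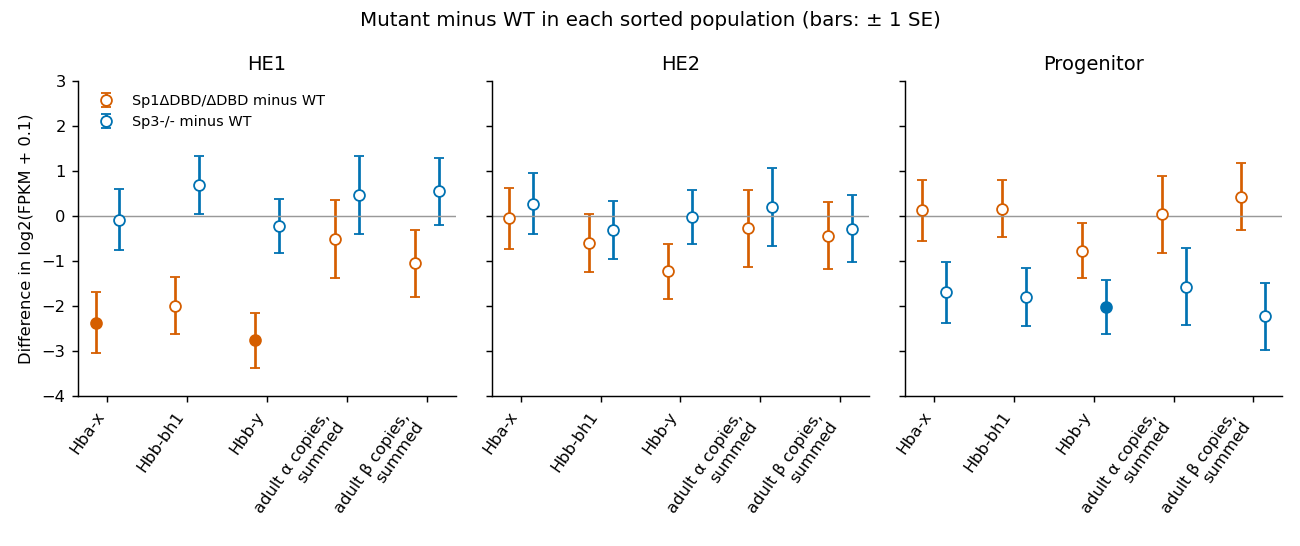
Differences in log2(FPKM + 0.1) between each mutant and WT for the embryonic globin genes and the summed adult copies, in HE1, HE2 and progenitors; points are limma estimates, bars ± 1 SE, and filled points passed the test (adjusted p under 0.05). Filled points are Hba-x and Hbb-y for Sp1ΔDBD/ΔDBD in HE1 and Hbb-y for Sp3-/- in progenitors.

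The mutants were then compared with each other. In HE1, Hbb-bh1, Hbb-y and Hba-x were higher in Sp3-/- than in Sp1ΔDBD/ΔDBD cells by 2.68 ± 0.638, 2.54 ± 0.605 and 2.28 ± 0.676 (adjusted p = 0.00874, 0.00878 and 0.0307), so that 3 of 7 were called higher against 6.83% of all genes. All 3 calls were lost without Sp1ΔDBD/ΔDBD replicate 2 (adjusted p = 0.105 for Hbb-bh1, 0.192 for Hbb-y and 0.332 for Hba-x) and without Sp3-/- replicate 2 (0.0589, 0.144 and 0.107), and those of Hbb-bh1 and Hba-x without Sp3-/- replicate 1 (0.0553 and 0.149). In progenitors 1 of 7, Hbb-bt, was called lower in Sp3-/- cells, against 6.09% of all genes, while Hbb-bh1 differed by -1.96 ± 0.638 (adjusted p = 0.0530) and Hba-x by -1.81 ± 0.676 (adjusted p = 0.0900). In HE2 0 of 7 were called, against 15.9% of all genes, with 2 at an unadjusted p under 0.05, and in ESC and Flk1+ cells 0 of 7, against 9.67% and 7.39%, with 0 at an unadjusted p under 0.05.

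Whether a mutation acted differently in 2 populations was tested by the difference of its effects. In 6 such contrasts, with 7 genes in each, 0 of 42 tests passed (lowest adjusted p = 0.419). An unadjusted p under 0.05 was found in 15 of 42, a share that was not counted over all genes. These tests are not separate, since the contrasts share samples and the embryonic genes follow one another closely. Of all genes, 0.00688%, 0.0207% and 0.131% passed in the Sp1ΔDBD/ΔDBD contrasts (HE2 minus HE1, progenitor minus HE2, progenitor minus HE1) and 0%, 0.0275% and 0.179% in those of Sp3-/-. For Hba-x, the effect of Sp1ΔDBD/ΔDBD in progenitors minus that in HE1 was 2.49 ± 0.956 (unadjusted p = 0.0175, adjusted p = 0.490), and for Hbb-bh1 the corresponding value in Sp3-/- cells was -2.48 ± 0.902 (unadjusted p = 0.0127, adjusted p = 0.419).

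The separate values of the adult α-globin copies were unsteady between samples. In WT HE2 samples Hba-a1 was 31.5 and 24.5 FPKM and Hba-a2 0.249 and 0.336 FPKM, whereas in WT progenitors Hba-a1 was 23.4 and 17.5 FPKM and Hba-a2 977 and 631 FPKM. In Sp1ΔDBD/ΔDBD HE2 cells replicate 1 had 0.862 FPKM of Hba-a1 and 47.7 FPKM of Hba-a2, and replicate 2 had 10.7 FPKM of Hba-a1 and 0.475 FPKM of Hba-a2. The 2 samples of a group thus gave nearly all of their adult α reads to different genes. The transcripts are largely the same: of the 75-base windows of Hba-a2, 81.0% also occur in Hba-a1, and of those of Hba-a1, 62.2% occur in Hba-a2. The separate values of these copies are therefore uncertain, and their sum was also examined, a choice made after the values were seen.

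Summed, the adult α copies were 0.444 to 3.95 FPKM in the HE1 samples, 11.1 to 48.5 FPKM in HE2 and 171 to 1001 FPKM in progenitors. In WT they rose at the HE1, HE2 and progenitor steps by 2.86 ± 0.862, 4.25 ± 0.862 and 4.84 ± 0.862 (adjusted p = 0.00898, 0.00175 and 0.000657). In progenitors the sum was 1001 and 648 FPKM in WT, 933 and 736 FPKM in Sp1ΔDBD/ΔDBD and 171 and 435 FPKM in Sp3-/- cells. The Sp3-/- samples lay below all others, with a difference from WT of -1.56 ± 0.862 that did not pass the test (adjusted p = 0.291).

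The adult β copies showed the same exchange between genes. Of the 75-base windows of Hbb-bs, 64.3% occur in Hbb-bt. The table also lists Hbb-b1 and Hbb-b2, the symbols of the adult β genes of another β haplotype, which are not among the 7 members and are not in the GENCODE M21 annotation. In WT progenitors Hbb-bs was 96.9 and 79.4 FPKM and Hbb-b1 0.231 and 0.373 FPKM. In Sp1ΔDBD/ΔDBD progenitors Hbb-bs was 131 and 0.110 FPKM, while Hbb-b1 was 0.690 and 105 FPKM, so that replicate 1 was high in Hbb-bs and replicate 2 in Hbb-b1. In Sp3-/- progenitors Hbb-bs was 0.658 and 0.00572 FPKM, while Hbb-b1 was 10.5 and 27.0 FPKM.

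Gene by gene, the test called Hbb-bs lower in Sp3-/- than in WT progenitors, by -8.28 ± 1.84 (adjusted p = 0.00875), and Hbb-b1 higher, by 5.42 ± 1.46 (adjusted p = 0.0263). Without Sp3-/- replicate 2 the first call was lost (-6.86, adjusted p = 0.0925). Hbb-bt, at 22.8 and 13.7 FPKM in Sp1ΔDBD/ΔDBD and at the floor in both Sp3-/- progenitor samples, gave the call between the mutants named above (-7.28 ± 1.16, adjusted p = 0.000501), and in WT it was 13.4 and 0.0334 FPKM. This call was kept without each of the 4 samples in turn. Its size depends on the pseudocount, since the Sp3-/- values are at the floor. Of the 75-base windows of Hbb-bt, 56.6% occur in Hbb-bs, so its separate values are uncertain like those of the other copies.

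The sum of Hbb-bs, Hbb-bt, Hbb-b1 and Hbb-b2 was steadier. In progenitors it was 133 and 113 FPKM in WT, 189 and 145 FPKM in Sp1ΔDBD/ΔDBD and 17.7 and 39.2 FPKM in Sp3-/- cells. The Sp3-/- samples were again below all others. The difference from WT was -2.22 ± 0.744 and did not pass the test (adjusted p = 0.0720), and the sum fell by 2.65 ± 0.744 from Sp1ΔDBD/ΔDBD to Sp3-/- cells (adjusted p = 0.0265). The size of the Hbb-bs difference in Sp3-/- progenitors, -8.28, thus came down to -2.22 when the copies were summed, beside -1.69 to -2.02 for the embryonic genes.

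**Figure D3:**
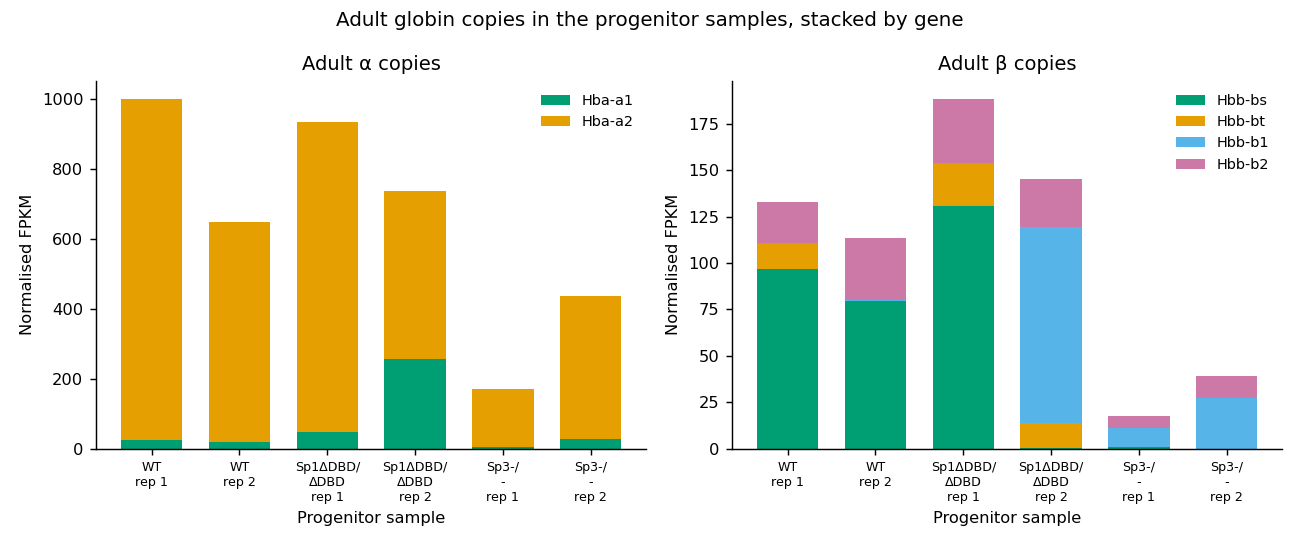
Normalised FPKM of the adult α copies (Hba-a1, Hba-a2) and the adult β copies (Hbb-bs, Hbb-bt, Hbb-b1, Hbb-b2) in the 6 progenitor samples, stacked so that the height of a bar is their sum. The share of each β copy changes between samples of the same genotype, and the 2 Sp3-/- bars are the lowest in both panels.

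The balance among the members was described by 3 ratios in the samples of HE1, HE2 and progenitors. The adult copies held 9.02% to 22.6% of the α-like FPKM in the 6 HE2 samples and 26.7% to 34.5% in the 6 progenitor samples, and these ranges did not overlap. The HE1 samples, at 6.70% to 29.5%, spanned most of both. Within progenitors the adult α share was 26.7% and 33.8% in WT, 29.2% and 28.5% in Sp1ΔDBD/ΔDBD and 34.5% and 29.5% in Sp3-/- cells, so the genotypes overlapped. The adult share of β-like FPKM, with Hbb-b1 and Hbb-b2 included, was 1.85% to 2.64% in HE2 and 1.22% to 3.43% in progenitors, with overlap. No test was made of these shares, which were described after they were seen.

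The ratio of the embryonic β-like genes and the ratio of α-like to β-like FPKM were tested between HE2 and progenitors. The test was a two-sided exact permutation test of 6 samples against 6 (smallest p possible 0.00216). Both ratios are of normalised values and so depend on ranks. The genotypes were pooled in each population, so the spread includes differences between genotypes. Hbb-y made up 9.32% ± 3.25 of the Hbb-bh1 and Hbb-y FPKM in HE2 and 6.90% ± 4.22 in progenitors (SD, n = 6), a difference of -2.42 percentage points that was within the spread (exact permutation p = 0.299). The α-like to β-like ratio was 0.281 to 0.520 in HE2 and 0.344 to 0.622 in progenitors. On the log2 scale its means were -1.29 and -1.08, and the difference of 0.21 was also within the spread (exact permutation p = 0.307). β-like FPKM exceeded α-like FPKM in all of these samples and in the 6 HE1 samples, where the ratio was 0.194 to 0.631.

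**Figure D4:**
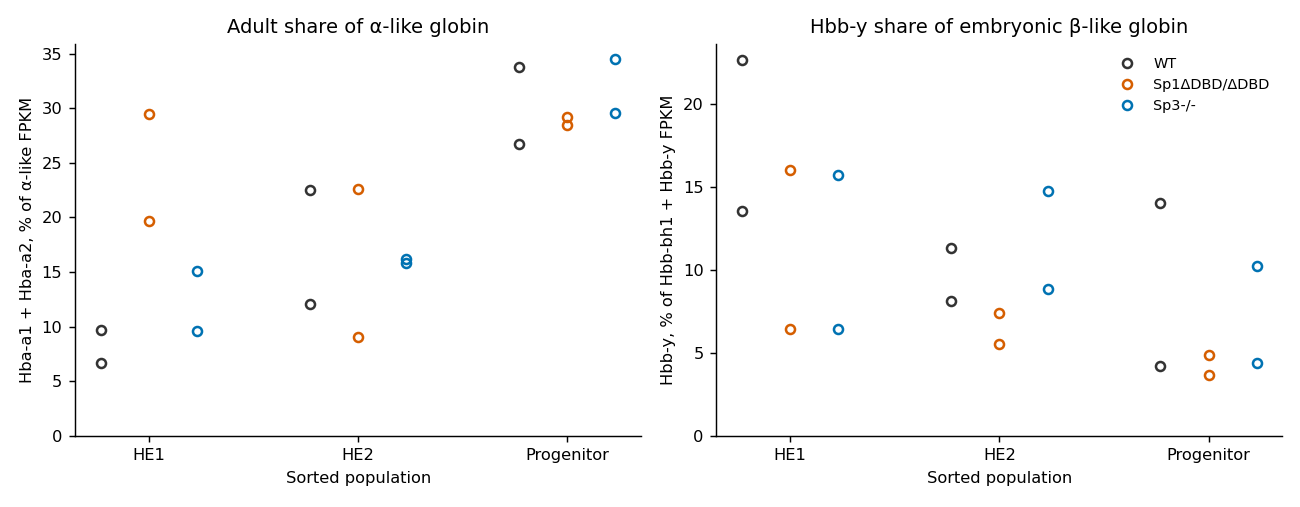
Share of Hba-a1 and Hba-a2 in the α-like FPKM (left) and of Hbb-y in the summed Hbb-bh1 and Hbb-y FPKM (right), in percent, for each sample of HE1, HE2 and progenitors; circles are samples and colours genotypes. On the left all progenitor circles (26.7% to 34.5%) lie above all HE2 circles (9.02% to 22.6%), and on the right the populations overlap.

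The remaining globin genes of the table were Hbb-b1, Hbb-b2, Hbb-bh2, Hbq1a, Hbq1b and the cytoglobin gene Cygb, 6 of the 13 genes of a list of related genes. Hbq1b and Hbq1a, the θ-globin genes of the α cluster, were detected above 1 FPKM only in progenitors. Hbq1b was 7.53 and 5.13 FPKM in WT, 7.60 and 7.19 FPKM in Sp1ΔDBD/ΔDBD and 1.49 and 5.27 FPKM in Sp3-/- progenitors. Hbq1a was 2.05 and 1.78 FPKM in WT and 2.20 and 1.91 FPKM in Sp1ΔDBD/ΔDBD, and it was at the floor in both Sp3-/- samples (0.0234 and 0.00572 FPKM, adjusted p = 1.85e-05). Whether reads of Hbq1a and Hbq1b can be told apart was not examined. Their separate values may therefore carry the uncertainty described for the adult copies. Hbb-bh2, a β-like gene next to Hbb-bh1, stayed between 0.297 and 2.06 FPKM in all progenitor samples. Hbb-b2 was 22.4 and 33.4 FPKM in WT, 34.5 and 26.1 FPKM in Sp1ΔDBD/ΔDBD and 6.49 and 12.2 FPKM in Sp3-/- progenitors. Cygb fell by 2.56 ± 0.539 in Sp1ΔDBD/ΔDBD HE1 cells (adjusted p = 0.00488). In the comparisons with WT, 1 of 6 of these genes was called lower in Sp1ΔDBD/ΔDBD HE1 cells (4.35% of all genes) and, in Sp3-/- progenitors, 1 was higher (Hbb-b1, 3.88% of all genes) and 1 lower (Hbq1a, 4.77%).

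A list of 25 known regulators of globin genes was all present in the table. In Sp1ΔDBD/ΔDBD cells 2 were higher in HE1, Lmo2 (by 0.94 ± 0.214) and Lin28b (by 0.90 ± 0.184), 1 higher in HE2 (Hic2) and 1 lower in progenitors (Mafg). Lmo2 is a bridging subunit of erythroid factor complexes, and Lin28b encodes an RNA-binding protein of foetal blood cells. In Sp3-/- cells 4 were higher in HE1, Myb (by 2.59 ± 0.410), Nfe2 (by 1.69 ± 0.237), Nfix and Lin28b, and 3 were higher in HE2 (Hic2, Zbtb7a and Ldb1), with 0 of 25 called in progenitors. The medians of the 25 differences lay between -0.01 and 0.27, beside 0.02 to 0.05 for all genes tested, of which 3.75% to 6.97% were called higher and 4.35% to 6.84% lower in these 6 comparisons.

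Klf1, the erythroid factor that binds CACCC boxes, was not called in any of these comparisons. It was 0.381 and 0.0622 FPKM in WT HE1, and at the floor in both Sp1ΔDBD/ΔDBD HE1 samples. In progenitors it was 43.5 and 12.1 FPKM in WT, 58.6 and 19.3 FPKM in Sp1ΔDBD/ΔDBD and 19.0 and 24.2 FPKM in Sp3-/- cells. Gata1, which binds the enhancers of both clusters, was 69.9 and 45.9 FPKM, 68.1 and 62.6 FPKM, and 40.1 and 45.2 FPKM in the same order. Bcl11a, a repressor of embryonic β-like genes, did not exceed 4.21 FPKM in any sample of the 3 sorted populations.

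In WT 6 of 9 erythroid markers rose from HE1 to HE2, against 11.7% of all genes, and 9 of 9 from HE2 to progenitors, against 5.46%. In Sp1ΔDBD/ΔDBD HE1 cells 0 of 9 were called, against 10% of all genes in either direction (median difference -0.53, with both summed levels below those of WT as given above). In Sp3-/- HE1 cells, where 0 of 7 globin genes were called, Alas2, the first enzyme of erythroid haem synthesis, rose by 1.46 ± 0.446, and Epor, the erythropoietin receptor, rose by 1.38 ± 0.403 (adjusted p = 0.0410 and 0.0331). Epor also rose in Sp3-/- HE2 cells (1.72 ± 0.403, adjusted p = 0.00899). In Sp3-/- progenitors Slc4a1, the band 3 anion exchanger of the red cell membrane, was 0.498 and 1.63 FPKM against 10.5 and 2.45 FPKM in WT and fell by 2.35 ± 0.595 (adjusted p = 0.0187). In Sp1ΔDBD/ΔDBD progenitors Hemgn and Rhag rose by 1.58 ± 0.419 and 1.45 ± 0.428 (adjusted p = 0.0224 and 0.0398). Of all genes, 6.02% and 6.97% were called higher in Sp3-/- HE1 and HE2 cells. In progenitors 4.77% were called lower in Sp3-/- and 3.75% higher in Sp1ΔDBD/ΔDBD cells.

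Of the genes within 500 kb of the clusters 19 were in the table, 13 around the α cluster and 6 around the β cluster. Nprl3, whose introns hold the enhancers of the α cluster, was not called in HE1, HE2 or progenitors. In these populations the called neighbours were all lower than WT, 1, 4 and 5 of 19 in Sp1ΔDBD/ΔDBD and 3, 4 and 4 of 19 in Sp3-/- cells, against 4.35%, 4.97% and 5.04% of all genes called lower in Sp1ΔDBD/ΔDBD and 4.87%, 6.84% and 4.77% in Sp3-/- cells. The medians of the 19 lay between -0.35 and -0.08. In Sp1ΔDBD/ΔDBD cells Sh3pxd2b, downstream of the α cluster, fell by 0.81, 1.14 and 1.98 in HE1, HE2 and progenitors (adjusted p = 0.0480, 0.00743 and 7.32e-05). In Sp3-/- cells Stk10, Ubtd2 and Cpeb4 were lower in all 3 populations, with a difference in Stk10 of -1.41 ± 0.193 in progenitors (adjusted p = 0.000263). The counts of the populations thus share genes. The lower calls were not limited to the sorted populations. In Sp3-/- cells Cpeb4 (-1.18) and Ubtd2 (-0.64) were also lower in ESC, and Stk10 (-0.68) in Flk1+ cells. Sh3pxd2b was lower in ESC of Sp1ΔDBD/ΔDBD (-1.01) and of Sp3-/- (-0.95). Trim34a and Trim34b were higher in Sp3-/- ESC, and Snrnp25 in Sp3-/- Flk1+ cells.

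In Flk1+ cells Hbb-bh1 was the only member with a value in both samples of a group. Hba-a1 and Hba-a2 had values only in single samples, at most 0.292 FPKM. Hbb-bh1 in Flk1+ cells was 0.718 and 1.26 FPKM in WT, 0.108 and 0.592 FPKM in Sp1ΔDBD/ΔDBD and 0.292 and 0.0595 FPKM in Sp3-/- cells, with both mutants below both WT samples. It fell by 2.08 ± 0.638 in Sp3-/- cells (adjusted p = 0.0386), 1 of 7 genes called lower against 5.94% of all genes, a call that was lost without any 1 of the 4 samples (adjusted p = 0.0589 to 0.294), and the difference of -1.47 ± 0.638 in Sp1ΔDBD/ΔDBD cells did not pass the test (adjusted p = 0.213). In Flk1+ Sp1ΔDBD/ΔDBD cells 0 of 7 were called, against 5.54% of all genes, and in ESC 0 of 7 in either mutant, against 6.06% and 11.3%. With a pseudocount of 1 FPKM in place of 0.1 the call of Hbb-bh1 in Sp3-/- cells was lost. These levels are low, and the depth behind them is unknown.

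Across the 15 group means, the members with the most similar pattern were each other: Pearson's r of log2(FPKM + 0.1) was 0.997 between Hba-x and Hbb-y, 0.990 between Hba-x and Hbb-bh1 and 0.989 between Hbb-bh1 and Hbb-y. Among 12009 other genes with a group mean above 3 FPKM, those most like Hbb-bh1 were Tnfrsf14 (r = 0.988), Itga4 (0.983), Gucy1a3 (0.983), Mctp1 (0.981) and Fermt3 (0.980). Most like Hba-x were Smim3 (0.988), Cyth4 (0.987), Paqr7 (0.986), Vav1 (0.981) and Rab27b (0.981). These values describe 15 points that share the same normalisation and the same rise from ESC to progenitors.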

How the data were processed

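RNA was sequenced from 30 samples. Per the labels, the authors trimmed paired-end reads with trimmomatic and used HISAT2 2.1.0 on mm10 and StringTie 1.3.3 for FPKM. The deposited FPKM values had been restricted by the authors to genes that exceed 1 FPKM somewhere, then quantile normalised. The gene annotation is not given in the sources used here. Columns were assigned to samples by title, and 0 per-sample columns were left without a sample.

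For the tests, 14525 genes still above 1 FPKM in some sample were taken as log2(FPKM + 0.1), a scale that understates changes of low genes, and fitted by limma 3.58.1 in R 4.3.3 with 15 group means, an intensity trend and 15 residual degrees of freedom. Two-sided p-values were corrected by the Benjamini-Hochberg method separately for each comparison (threshold 0.05), and the fit was tested on simulated data. An exact permutation of 2 against 2 samples cannot go below 0.333. Comparisons that use the same samples are not independent of each other. Named genes were all members, all listed globin relatives in the table, Sp1 and Sp3, at most 8 called genes of each other list, and the 5 genes most like Hbb-bh1 and Hba-x. Klf1, Gata1, Bcl11a and other genes named without a call were chosen after their values were seen, as were the locus neighbours named. The members and lists were chosen with earlier results of these data known.

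Alternatives were a pseudocount of 1, no filter, a filter on a mean above 1 FPKM, fits with a replicate block, populations fitted alone, no intensity trend, and leaving out each sample. Summing near-identical copies was added after the values were seen. Ratios and figures used Python 3.11.15, pandas 2.3.3, scipy 1.17.1 and matplotlib 3.10.9.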

Additional observations from a re-analysis of the deposited data

How the results depend on the processing

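In the comparisons of Sp1ΔDBD/ΔDBD with WT, of Sp3-/- with WT and of Sp3-/- with Sp1ΔDBD/ΔDBD, 2, 3 and 4 gene and population pairs were called, the steps gave 13 in WT, 14 in Sp1ΔDBD/ΔDBD and 8 in Sp3-/- cells, and the differences of mutant effects gave 0. These counts were within 1.5 times with no filter and with the stricter filter. A pseudocount of 1 gave 5 (Sp1ΔDBD/ΔDBD against WT) and 7 (Sp3-/- against Sp1ΔDBD/ΔDBD), and a fit without the intensity trend gave 1 for Sp3-/- against WT. Populations fitted alone, each from 6 samples and without the spread of the other populations, gave 0, 0 and 1. Summed copies gave 2, 2, 4, 16, 15, 11 and 0 in the order above. These were counted over Hba-x, Hbb-bh1, Hbb-y and the adult α and adult β sums in place of the 7 genes. The base of the count is therefore smaller than in the main fit. Except where a value or a smaller number of samples is named, the cause was not tested.

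A replicate block by the number within each population gave 3, 3, 4, 14, 13, 8 and 0, and with this block the Hbb-y difference in Sp3-/- progenitors did not pass (adjusted p = 0.0612). A replicate block by genotype and number, shared by HE1, HE2 and progenitors, gave 7, 6 and 11 between genotypes, 13 for the Sp3-/- steps and 1 for the differences of effects, Hba-x for Sp1ΔDBD/ΔDBD in progenitors minus HE1. The labels do not say that equal numbers mark a shared culture, and deviations of same-numbered samples correlated by 0.169 to 0.443 between WT and Sp1ΔDBD/ΔDBD, -0.0255 to 0.151 between WT and Sp3-/-, and between populations by 0.310 to 0.543 in WT and Sp1ΔDBD/ΔDBD and by 0.0317 to 0.131 in Sp3-/-, so the pairing is only a hint.

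Leaving out 1 sample at a time, with the lone sample assumed to vary like the others, the counts ranged from 0 to 4 (Sp1ΔDBD/ΔDBD against WT; 0 without HE1 WT replicate 1 or HE1 Sp1ΔDBD/ΔDBD replicate 2, 4 without progenitor WT replicate 1 or HE2 Sp1ΔDBD/ΔDBD replicate 2), 1 to 4 (Sp3-/- against WT; 1 without any 1 of the 4 Flk1+ samples of these genotypes), 1 to 6 (between mutants; 1 without HE1 Sp3-/- replicate 2), 12 to 14, 12 to 14 and 5 to 9 for the steps (5 without HE2 Sp3-/- replicate 2), and 0 to 2 for the differences of effects (2 without progenitor WT replicate 1, progenitor WT replicate 2 or progenitor Sp1ΔDBD/ΔDBD replicate 1).

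The log2 differences from WT whose sign depended on 1 sample were all uncalled with every sample in place. In Sp1ΔDBD/ΔDBD they ranged from -5.26 to 0.025 (Hba-a1) and -1.37 to 1.86 (Hbb-bs) in HE1, from -0.76 to 0.67 (Hba-x) and -0.45 to 1.41 (Hbb-bt) in HE2, and from -0.43 to 0.69 (Hba-x), -0.79 to 1.12 (Hbb-bh1), -0.71 to 0.17 (Hba-a2) and -8.71 to 0.57 (Hbb-bs) in progenitors. In Sp3-/- they ranged in HE1 from -1.35 to 1.20 (Hba-x), -3.06 to 2.22 (Hba-a1), -0.19 to 2.26 (Hba-a2), -0.89 to 0.45 (Hbb-y) and -2.69 to 0.077 (Hbb-bs). In HE2 they ranged from -0.44 to 0.99 (Hba-x), -0.23 to 0.64 (Hba-a1), -0.16 to 0.31 (Hba-a2), -0.79 to 0.17 (Hbb-bh1), -0.71 to 0.67 (Hbb-y), -0.72 to 0.14 (Hbb-bs) and -0.79 to 0.14 (Hbb-bt), and in progenitors from -1.85 to 0.50 (Hba-a1).

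The difference in the log2 α-like to β-like ratio was -0.042 with embryonic genes only (exact permutation p = 0.835) and -0.0981 to 0.519 without either replicate number, and sign flips over the replicate block gave an exact p of 0.375. For the Hbb-y share the values were -3.40 to -1.45 and 0.125. With Hbb-b1 and Hbb-b2 the globin share of Sp3-/- HE1 cells was 0.0201% in place of 0.0198%. With 2 samples a group and no read counts, differences near the floor could not be resolved.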
